A study of Mus musculus with 22 samples.

Results

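The genes described here are 10 of the 21881 gene symbols in the count table, taken by symbol: the D-type cyclins Ccnd1, Ccnd2 and Ccnd3, the E-type cyclins Ccne1 and Ccne2, the cyclins Ccna2 and Ccnb1, and the inhibitors of cyclin-dependent kinases (CDKs) Cdkn1a, Cdkn1b and Cdkn2a. All 10 symbols were found. The libraries came from 8 mouse blastocysts of embryonic day 3.5 and from 7 stem cell lines labelled wild type for Nanog. The embryos were 2 wild-type, 2 heterozygous and 4 Nanog-null embryos, each genotype with as many females as males. Nanog, a transcription factor of the pluripotent epiblast, was between 0.300 and 0.624 CPM (a gene's count scaled to the same library total in every sample) in the null embryos, and between 53.6 and 137 CPM in the wild-type and heterozygous embryos. The lines were 2 embryonic stem (ES) lines, labelled serum free, 3 trophoblast stem (TS) lines and 2 extraembryonic endoderm (XEN) lines. ES lines stand for the epiblast, TS lines for the trophectoderm and XEN lines for the primitive endoderm. Each line was sequenced at 2 passages, which the labels call technical replicates, so the line and not the library was the unit of every test. The ES lines were 1 female and 1 male, the TS lines 2 females and 1 male, and both XEN lines were male, so that sex and lineage cannot be told apart for XEN. The labels name neither a strain nor the Nanog alleles. The embryo libraries came from amplified cDNA of whole embryos and the line libraries from another kit, so embryos and lines were not tested against each other.

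Cyclins bind and activate CDKs. D-type cyclins, with CDK4 or CDK6, phosphorylate the retinoblastoma proteins in G1 and so release E2F factors, which switch on the genes of the E- and A-type cyclins. Cyclin E with CDK2 acts at the entry into S phase, cyclin A in S phase and G2, and cyclin B with CDK1 at mitosis. The CIP/KIP proteins p21 (Cdkn1a) and p27 (Cdkn1b) bind cyclin-CDK complexes of several kinds, while the INK4 protein p16, made from Cdkn2a, binds CDK4 and CDK6. A second product of Cdkn2a, ARF, acts on MDM2 and thereby on p53, and p53 in turn activates Cdkn1a. Pluripotent cells are known for a short G1 phase, and mouse ES cells for high CDK2 activity through much of the cycle.

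Total counts ranged from 14768624 to 32231620 per embryo and from 8201801 to 23677126 per line library. The 10 epiblast markers summed to between 8141 and 8813 CPM in ES libraries and to at most 1264 CPM in any other line library. The 9 trophectoderm markers summed to between 3582 and 10410 CPM in TS libraries, against at most 1307 CPM in the other line libraries, and the 10 primitive endoderm markers to between 34903 and 48873 CPM in XEN libraries, against at most 3325 CPM in the others. The labelled lineages thus carried their defining markers. The 8 fibroblast markers reached 226 CPM in passage 1 of TS line F2 and lay between 11.2 and 67.1 CPM in the other TS libraries, against 0.158 to 11.2 CPM in ES and XEN libraries. Among the embryos, genes with an average of at least 5 CPM in the other embryos but with at most 3 counts in the embryo itself numbered 40 to 68 in the wild-type and heterozygous embryos and 570, 300, 133 and 809 in null F1, F2, M1 and M2. Null F1 and M2 thus lacked the most such genes.

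The promoters of the members bear on how their counts can be read, and 4 stretches before annotated starts are given, for Cdkn1a, Cdkn2a and Ccne1. Those of Ccnd3, Ccnb1 and Cdkn1b are not shown. They come from RefSeq (GRCm38.p6), whose table held 9 promoters of 6 members, and Ccnd1, Ccnd2, Ccne2 and Ccna2 were not among these. The 250 bases before each start were searched on both strands, and bases inside an annotated exon are not shown. Capitals mark GC boxes (GGGCGG, in 32.7% of 32851 promoter windows of that length), E2F sites (TTTCGCGC, TTTGGCGC or TTTCCCGC, in 1.53%) and a p53 element of 2 adjacent half-sites with at most 1 letter off the consensus (in 0.0761%). The p53 element was added to the search after the data were seen. Each stretch runs 5′ to 3′ on the gene's own strand.
Cdkn1a, upstream start, chr17:29090729-29090975: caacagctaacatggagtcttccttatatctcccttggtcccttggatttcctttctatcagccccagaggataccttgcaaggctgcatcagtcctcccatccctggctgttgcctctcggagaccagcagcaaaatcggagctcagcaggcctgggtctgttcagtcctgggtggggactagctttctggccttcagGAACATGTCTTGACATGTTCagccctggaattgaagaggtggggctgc
Cdkn2a, ARF start, chr4:89294654-89294869 (minus strand): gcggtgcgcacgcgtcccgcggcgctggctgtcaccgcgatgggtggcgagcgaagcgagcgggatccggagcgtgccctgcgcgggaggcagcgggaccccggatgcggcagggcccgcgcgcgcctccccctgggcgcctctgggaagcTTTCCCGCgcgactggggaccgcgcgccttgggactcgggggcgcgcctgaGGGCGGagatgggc
Cdkn2a, p16 start, chr4:89282193-89282442 (minus strand): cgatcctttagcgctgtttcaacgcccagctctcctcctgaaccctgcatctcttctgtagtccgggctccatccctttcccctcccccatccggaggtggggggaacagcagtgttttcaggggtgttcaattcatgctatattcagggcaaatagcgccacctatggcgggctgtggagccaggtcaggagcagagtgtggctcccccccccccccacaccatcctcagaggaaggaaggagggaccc
Ccne1, chr7:38107535-38107740 (minus strand): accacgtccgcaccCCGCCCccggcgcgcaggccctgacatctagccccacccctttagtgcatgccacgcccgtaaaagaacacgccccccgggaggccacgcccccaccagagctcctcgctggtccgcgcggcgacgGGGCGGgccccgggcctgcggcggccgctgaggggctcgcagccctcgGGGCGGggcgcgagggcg
The Cdkn1a stretch held the p53 element 51 bases before the start, which 25 of the 32851 windows had. The window before the other Cdkn1a start, chr17:29093519-29093768, is not shown. It held 2 GC boxes and no p53 element, and the single Cdkn1a row does not tell the starts apart. The stretch before the ARF start held an E2F site 99 bases before it, and none of the motifs searched was found before the p16 start. The Ccne1 window held 4 GC boxes, 3 of them in the bases shown. A match describes letters and shows no binding. The 2 Cdkn2a starts lie 12427 bases apart and both feed the single Cdkn2a row of the count table, so p16 and ARF transcripts were counted together.

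Among the 10 members, Ccnd1 and Ccnd2 differed most between the 3 lineages of lines. Ccnd1 was high in ES lines, lower in TS lines and almost absent in XEN lines, and Ccnd2 was high in XEN lines alone among the lines measured. The 2 ES lines held 272 and 234 CPM of Ccnd1, the 3 TS lines 42.6, 125 and 55.1 CPM, and the 2 XEN lines 1.38 and 1.99 CPM. No line of 1 lineage overlapped a line of another. In the fit over all 14687 genes tested (edgeR, quasi-likelihood test on counts summed per line, Benjamini-Hochberg adjustment), Ccnd1 was 119-fold higher in ES than in XEN lines (log2 fold change 6.89, SE 0.61, adjusted p = 0.000214). It was 36.1-fold higher in TS than in XEN lines (log2 fold change 5.17, SE 0.55, adjusted p = 0.000575). Between ES and TS lines Ccnd1 was 3.29-fold higher in ES (log2 fold change 1.72, SE 0.42, adjusted p = 0.0153). That call was lost when ES line F1 was left out (adjusted p = 0.0903) or ES line M2 (adjusted p = 0.0558), which left the group at 1 line.

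Ccnd2 was high in XEN lines and low in both ES and TS lines. It was at 549.5 and 339.6 CPM in the XEN lines, at 5.51 and 7.14 CPM in the ES lines, and at 2.29, 10.8 and 7.49 CPM in the TS lines. It was 78.7-fold lower in TS than in XEN lines (log2 fold change -6.30, SE 0.62, adjusted p = 0.000406) and 88.9-fold lower in ES than in XEN lines (log2 fold change -6.47, SE 0.75, adjusted p = 0.000640). ES and TS lines overlapped in Ccnd2 and the test found no difference (log2 fold change -0.18, SE 0.57, adjusted p = 0.825). Ccnd2 was the least repeatable member between passages, with ratios of the higher to the lower passage of 3.47, 7.72 and 2.42 in TS lines F1, F2 and M3. In each of these lines the passage with more Ccnd2 also had the larger sum of fibroblast markers. In F2 the passages held 20.3 and 2.64 CPM of Ccnd2 beside 226 and 16.6 CPM of fibroblast markers. In M3 they held 11.0 and 4.56 CPM beside 67.1 and 23.5 CPM, and in F1 3.58 and 1.03 CPM beside 38.6 and 11.2 CPM. Ccnd1 did so in 1 of the 3 lines, with 165 and 91.5 CPM in F2, 41.3 and 66.5 CPM in M3 and 25.9 and 58.9 CPM in F1, in the same order of passages. The part of fibroblast RNA in these values was not tested. With only the passage of the lower fibroblast sum of each TS line, the ES against TS log2 fold change of Ccnd2 turned from -0.18 to 1.16 and stayed short of the threshold (adjusted p = 0.108), while that of Ccnd1 was 1.76 (adjusted p = 0.00112).

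Ccnd3 was lowest in ES lines. The ES lines held 151 and 124 CPM, the TS lines 235, 290.5 and 343 CPM, and the XEN lines 331 and 305 CPM. TS and XEN lines overlapped, and both lay above both ES lines. Ccnd3 was 2.21-fold lower in ES than in TS lines (log2 fold change -1.14, SE 0.23, adjusted p = 0.00815), a call lost without ES line M2 (adjusted p = 0.0787). It was 2.91-fold lower in ES than in XEN lines (log2 fold change -1.54, SE 0.25, adjusted p = 0.00269), and TS against XEN gave -0.40 (SE 0.22, adjusted p = 0.200). Ccnd3 shares sequence with the pseudogene Ccnd3-ps on chromosome 4, which has no row in the count table, so reads of the pseudogene could sit in its row or be lost. In the GRCm38 annotation Ccnd1 lies on chromosome 7 from 144929931 to 144939925 (minus strand) and overlaps LTO1, Ccnd2 on chromosome 6 from 127125162 to 127152193 (minus strand) and overlaps 2 antisense RNAs, and Ccnd3 on chromosome 17 from 47505051 to 47599691 (plus strand) and overlaps Bysl. These neighbours are on the opposite strands, and the labels do not say whether counting used strand, without which reads from the overlaps cannot be told apart.

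**Figure D1:**
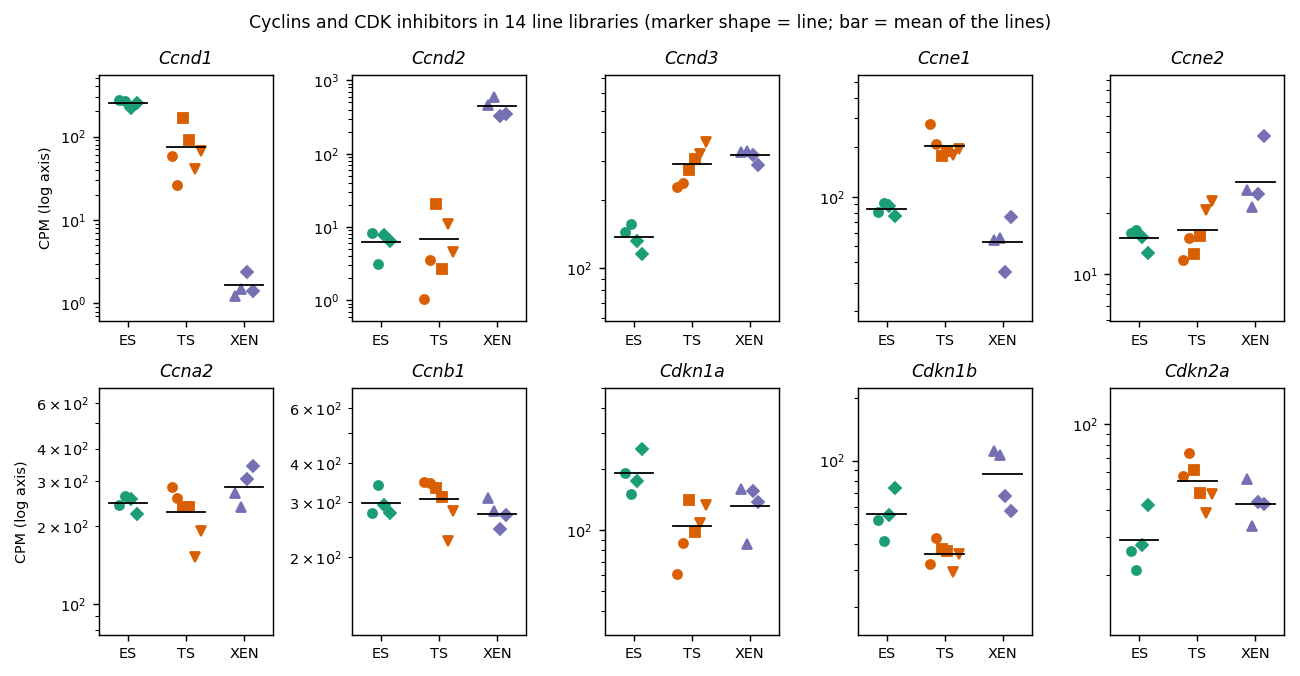
Levels of the 10 genes in the 14 line libraries, in CPM on log axes that differ between panels; each point is 1 library, marker shapes tell the lines of a lineage apart, and bars are means of the lines. Ccnd1 falls from ES (234 and 272 CPM) to XEN (1.38 and 1.99 CPM), Ccnd2 is high in XEN lines and low in ES and TS lines alike, and Ccna2 and Ccnb1 lie close together in all 3 lineages.

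Measured per kilobase of merged coding-transcript exons, the makeup of the D-type pool could be compared between genes. In ES lines Ccnd1 made up 57.2% ± 0.604 of the summed D-type level per length (SD, n = 2) and Ccnd3 42.0% ± 0.843. In TS lines Ccnd3 made up 83.8% ± 7.71 (n = 3) and Ccnd1 15.4% ± 7.40. In XEN lines Ccnd3 made up 63.8% ± 6.40 (n = 2), Ccnd2 35.9% ± 6.51 and Ccnd1 0.257% ± 0.104. The order of Ccnd2 and Ccnd3 in XEN lines depended on the length used: by plain counts Ccnd2 made up 57.4% and Ccnd3 42.3%, since the Ccnd2 exons span 6743 bases and those of Ccnd3 2772. The summed D-type level per length was 118 ± 13.9 CPM per kilobase in ES lines, 125 ± 25.0 in TS lines and 181 ± 28.5 in XEN lines. The pool thus varied far less between lineages than Ccnd1 or Ccnd2 did.

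In the embryos Ccnd3 was the leading D-type cyclin in all 8 libraries. It made up 93.9% ± 4.18 of the D-type level per length in the 4 Nanog-bearing embryos (wild type and heterozygous, SD) and 93.5% ± 5.02 in the 4 null embryos. Its lowest share in any embryo was 89.2%, in null F2, where Ccnd1 made up 10.3%. Ccnd1 had 2 counts in null F1 and 3 counts in the wild-type female, both within the limit of 3 counts used here for detection. These embryo shares stand beside those of the lines as values only, since the kits differed.

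**Figure D2:**
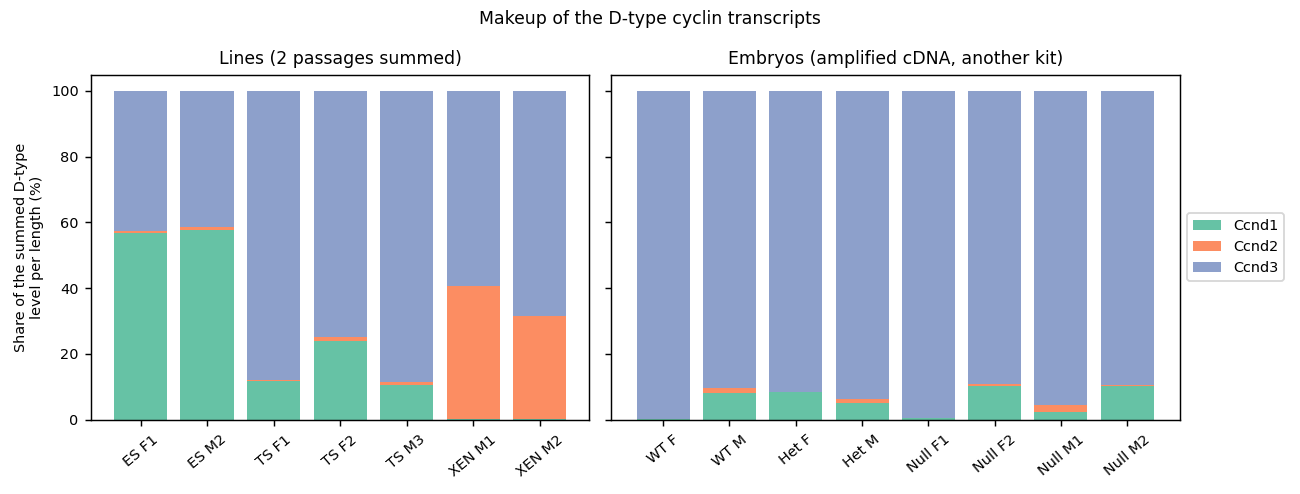
Share of each D-type cyclin in the summed D-type level per length, in percent, for the 7 lines (left) and the 8 embryos (right). Ccnd1 leads in both ES lines, Ccnd3 leads in TS and XEN lines with Ccnd2 at 31.3% and 40.5% in XEN, and Ccnd3 is at 89.2% or more in every embryo.

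Of the E-type cyclins, Ccne1 was highest in TS lines. The TS lines held 244, 184 and 188 CPM, the ES lines 86.7 and 81.7 CPM, and the XEN lines 55.7 and 50.8 CPM, with no overlap between lineages. Ccne1 was 2.55-fold higher in TS than in ES lines (log2 fold change of ES against TS -1.35, SE 0.19, adjusted p = 0.00187) and 3.18-fold higher in TS than in XEN lines (log2 fold change 1.67, SE 0.19, adjusted p = 0.000764). Both calls held in all 14 alternative analyses of the lines. ES against XEN lines gave 0.32 (SE 0.20, adjusted p = 0.222) and did not pass with trimmed-mean scaling. With library totals, the scaling of the CPM given here, it was 0.66 and passed (adjusted p = 0.0306), the only 1 of the 14 alternatives in which it did. The ratio of the E-type to the D-type level per length was 0.874 ± 0.337 in TS lines (n = 3), 0.384 ± 0.0268 in ES lines (n = 2) and 0.193 ± 0.0343 in XEN lines (n = 2).

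Ccne2 was expressed at lower levels in all lines and ran highest in XEN. It was at 23.0 and 33.7 CPM in the XEN lines, at 16.2 and 14.0 CPM in the ES lines, and at 13.4, 14.1 and 21.9 CPM in the TS lines. Ccne2 was 2.37-fold lower in ES than in XEN lines (log2 fold change -1.25, SE 0.37, adjusted p = 0.0288) and 2.06-fold lower in TS than in XEN lines (log2 fold change -1.04, SE 0.33, adjusted p = 0.0421). These calls were among the least firm, since the second was lost in 9 of 14 alternatives and the first in 4 of 14, 3 of which left out ES line F1 (adjusted p = 0.0972), ES line M2 (0.150) or XEN line M2 (0.132). The second was lost without either ES line (0.0732 and 0.0691), TS line F1 (0.107) or F2 (0.129), or either XEN line (0.0515 and 0.215). Ccne2 overlaps Ints8 on the other strand, and the labels do not state a stranded count for it.

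The cyclins of S phase and mitosis differed little between lineages. Ccna2 was between 174 and 319 CPM and Ccnb1 between 256 and 347 CPM over the 7 lines, and the lineages overlapped for both. Of their 6 contrasts none passed the test, with log2 fold changes from -0.60 (Ccna2, TS against XEN, SE 0.20, adjusted p = 0.0537) to 0.05 (Ccna2, ES against TS, SE 0.21, adjusted p = 0.855). Ccna2 passed against XEN lines in 3 of 14 alternatives for ES lines, among them without TS line M3 (adjusted p = 0.0413 by edgeR), and in 3 of 14 for TS lines, among them without TS line F1 (0.0457). For Ccnb1 the values were -0.11 for ES against TS (SE 0.17), -0.22 for ES against XEN (SE 0.18) and -0.11 for TS against XEN (SE 0.17), the last 2 of which turned positive with library totals in place of trimmed-mean scaling. Ccnb1 has a pseudogene, Ccnb1-ps, on chromosome 7 without a row of its own, and Ccna2 overlaps Exosc9 on the other strand.

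Among the inhibitors, Cdkn1b was highest in XEN lines, at 108 and 63.9 CPM. The ES lines held 46.5 and 64.3 CPM and the TS lines 37.4, 37.4 and 32.8 CPM. All TS lines lay below all other lines, while ES and XEN lines overlapped. Cdkn1b was 2.91-fold lower in TS than in XEN lines (log2 fold change -1.54, SE 0.25, adjusted p = 0.00316), which held in all 14 alternatives. Against ES lines the log2 fold change was -0.98 (ES against XEN, SE 0.28, adjusted p = 0.0242). This call was lost without ES line F1 (adjusted p = 0.154), ES line M2 (0.0539) or XEN line M1 (0.128), and with library totals (0.108). ES against TS gave 0.56 (SE 0.25, adjusted p = 0.108).

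Cdkn1a was at 169.6 and 213 CPM in the ES lines, 113 and 149 CPM in the XEN lines, and 73.7, 118 and 122 CPM in the TS lines. The ES lines lay above all others, but the contrast with TS lines ended at the threshold (log2 fold change 0.80, SE 0.27, adjusted p = 0.0501) and passed it in 6 of 14 alternatives. Neither ES against XEN (0.20, SE 0.30, adjusted p = 0.610) nor TS against XEN (-0.59, SE 0.27, adjusted p = 0.128) passed.

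Cdkn2a, which counts p16 and ARF transcripts together, was detected in every line library. The ES lines held 23.4 and 34.9 CPM, the TS lines 65.5, 54.2 and 43.5 CPM, and the XEN lines 41.9 and 43.2 CPM, so both ES lines lay below all others. It was 1.95-fold lower in ES than in TS lines (log2 fold change -0.97, SE 0.24, adjusted p = 0.0158) and 1.85-fold lower in ES than in XEN lines (log2 fold change -0.89, SE 0.25, adjusted p = 0.0243), while TS against XEN gave 0.08 (SE 0.23, adjusted p = 0.822). The first call was lost without ES line F1 (adjusted p = 0.136). The second was lost without ES line F1 (0.162), XEN line M1 (0.0644) or XEN line M2 (0.0770), and with library totals (0.140). With the TS passages of the lower fibroblast sum, ES against TS was -0.87 (adjusted p = 0.0168).

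Read against all genes, the share of members called was near the background in ES against TS lines, with 4 of 10 called (1 higher and 3 lower in ES) where 41.3% of the 14687 genes tested were called. In ES against XEN lines 6 of 10 were called (1 higher and 5 lower in ES) against 45.1% of all genes, and in TS against XEN lines 5 of 10 (2 higher and 3 lower in TS) against 36.7%. The median log2 fold change of the members was -0.14, -0.72 and -0.50 in these comparisons, beside -0.02, 0.05 and 0.02 over all genes. The comparisons share lines with each other and are not independent. With library totals alone, the median of all genes moved by 0.34 in ES against XEN and by 0.28 in TS against XEN, and the share of calls that were higher in the first-named lineage rose from 51.7% to 66.6% and from 55.3% to 71.2%. The members called then numbered 5, 4 and 4.

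**Figure D3:**
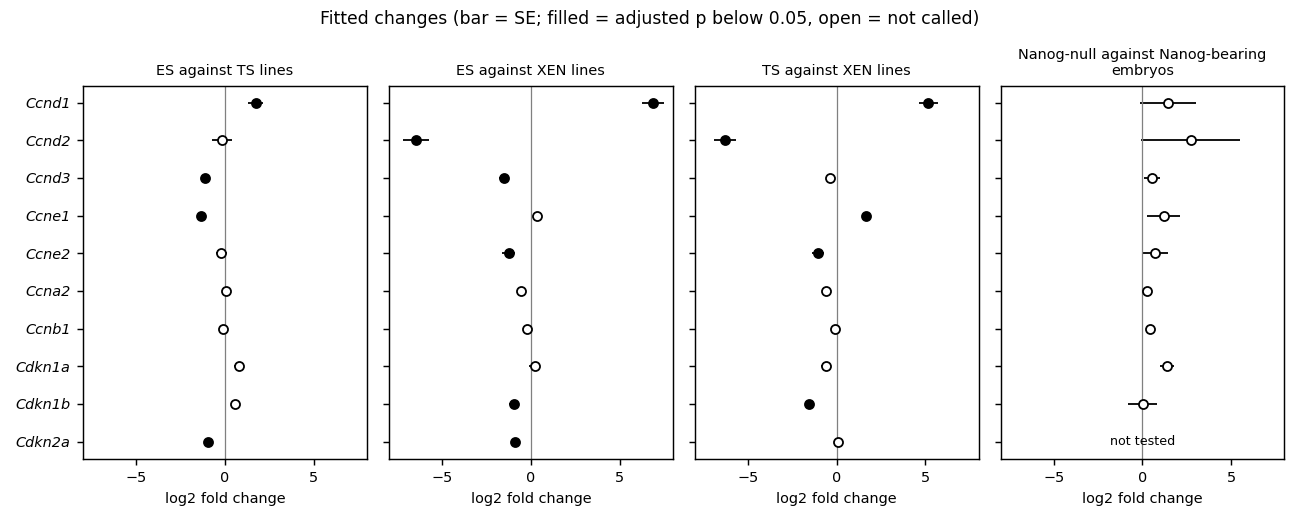
Fitted log2 fold changes of the 10 genes in the 3 comparisons of lines and in Nanog-null against Nanog-bearing embryos; bars are SEs and filled points have an adjusted p below 0.05. Ccnd1 and Ccnd2 have the largest changes against XEN lines (6.89 and -6.47 for ES against XEN), and no point is filled in the embryo panel.

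The order of the 10 genes per length also differed between samples. In both ES lines Ccnb1 had the highest level per length and Ccnd2 the lowest. Ccnb1 came first in 2 of the 3 TS lines and Ccnd3 in the other, TS M3, and Ccnd2 was last in all 3. In both XEN lines Ccnd3 came first and Ccnd1 last. In all 8 embryos Ccnb1 came first and Cdkn2a, with no counts, last, and Ccna2 came second in 6 of them. The level of Ccnb1 per length was between 7.84 and 14.5 times that of Ccna2 in the embryos, and between 1.17 and 2.14 times in the lines. Kit and source differed between these sets together, so this is given as values without a test.

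The question in the embryos was whether the members moved with loss of Nanog, and none passed the test in any of 3 comparisons. Of the 9 members tested, 0 were called in null against Nanog-bearing embryos, where 0.0154% of 12965 genes were called (2 genes), 0 in null against wild type (0.0154%, 2 genes) and 0 in heterozygous against wild type (0%, no gene by edgeR, with 107 genes at an unadjusted p under 0.05, 76 called by DESeq2 and 0 by limma voom). Cdkn2a had 0 counts in all 8 embryos and was not tested. In null against Nanog-bearing embryos 644 genes had an unadjusted p under 0.05, and in null against wild type 500. DESeq2 called 87 and 96 genes in these, and limma voom 0 in both. The spread between embryos was wide, with a biological coefficient of variation of 0.979 against 0.346 between lines. The log2 fold changes of all 9 tested members were above 0 in null against Nanog-bearing embryos, with a median of 0.71 beside -0.05 over all genes, but the signs of Ccnd1, Ccnd3, Ccne1, Ccne2 and Cdkn1b turned when 1 or 2 null embryos were left out. The comparisons share embryos.

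Cdkn1a had the smallest p of the members in each comparison. It was at 12.8 and 12.1 CPM in the wild-type female and male, 44.6 and 23.1 CPM in the heterozygous female and male, and 58.8, 77.0, 38.3 and 30.3 CPM in null F1, F2, M1 and M2. Every null embryo lay above both wild-type embryos, while the heterozygous female lay within the range of the null embryos. How many of all 12965 genes separate null from wild-type embryos in this way was not counted. The log2 fold change was 1.36 for null against Nanog-bearing embryos (SE 0.40, adjusted p = 0.931 by edgeR), 2.04 for null against wild type (SE 0.53, adjusted p = 1) and 1.35 for heterozygous against wild type (SE 0.56, adjusted p = 1). DESeq2 gave adjusted p = 0.00766 for null against wild type and 0.0762 for null against Nanog-bearing embryos, and limma voom gave 0.313 and 0.339. Females were above males in the heterozygous and null embryos, and the wild-type pair was nearly level.

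The D-type cyclins were uneven between single embryos. Ccnd1 was at 0.127 and 5.96 CPM in the wild-type female and male, 5.37 and 5.01 CPM in the heterozygous female and male, and 0.122, 13.3, 2.24 and 17.9 CPM in null F1, F2, M1 and M2. Ccnd2 had 0 counts in the wild-type female, the heterozygous female and null F1, and was between 0.650 and 3.53 CPM in the other 5 embryos. Ccnd3 was at 55.9 and 49.1 CPM in wild type, 43.2 and 66.8 CPM in heterozygous, and 22.7, 85.6, 68.7 and 116 CPM in null embryos. The null embryos thus spanned the range of the others for each D-type cyclin, and reached above it. The mean of Ccnd2 was 1.33 CPM in the null and 0.958 CPM in the Nanog-bearing embryos, far closer than its fitted change below. For null against Nanog-bearing embryos the log2 fold changes, with sex as a term, were 1.45 for Ccnd1 (SE 1.59), 2.73 for Ccnd2 (SE 2.78) and 0.54 for Ccnd3 (SE 0.46). Without null F2 that of Ccnd1 turned to -0.90.

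The highest values of Ccnd1, Ccnd3 and Ccne2 lay in null F2 and M2, which also stood apart in their markers. The 9 trophectoderm markers summed to 2928 and 3230 CPM in null F2 and M2 and to between 6212 and 9393 CPM in the other 6 embryos. Krt8 (810 and 958 CPM) and Krt18 (1348 and 1322 CPM), the largest parts of these sums, were lowest in these embryos, and Elf5 was at 0 CPM. Gata3 (576 and 760 CPM) and Eomes (45.0 and 64.4 CPM) lay within the range of the others. Null F2 had the lowest Cdx2 but the highest Hand1 and Tead4 of the embryos. The 10 epiblast markers were also lowest there, at 2529 and 2882 CPM against 2931 to 4728 CPM in the others, and the 10 primitive endoderm markers summed to 1989 and 1153 CPM against 1301 to 2420 CPM. Of the 8 fibroblast markers, 1 was at 0 in null F2 and none in null M2, against 6 to 8 in each other embryo. Col1a1, Col1a2, Col3a1, Dcn, Lum and Postn had counts in these 2 embryos alone among the 8. Of the 8 markers, 2 in null F2 and 4 in null M2 were at or under 3 counts. The fibroblast sums of 5.76 and 6.30 CPM lay within the 0 to 13.1 CPM of the others, but mostly from other genes. In the others any counts were of Fbln5 and Thy1, at up to 12.7 and 2.62 CPM. The 7 blood markers summed to 8.22 and 5.40 CPM, within the 0.0859 to 17.5 CPM of the others, but mostly from other genes. Hba-a1 was at 5.71 and 4.10 CPM in null F2 and M2, against at most 0.248 CPM in the others. Hbb-b1 was also highest in these 2 embryos. Laptm5 was highest in the heterozygous male and Lyz2 in null M1. The part of other cells or of fewer trophectoderm cells in the cyclin values was not tested. Without null F2 and M2, the log2 fold change against Nanog-bearing embryos turned to -2.51 for Ccnd1, -0.33 for Ccnd3 and -0.37 for Ccne2, while that of Cdkn1a was 1.28 (adjusted p = 0.794 by edgeR). As the embryos left out held the highest values of Ccnd1, Ccnd3 and Ccne2, a fall of these changes was fixed by the choice.

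Of the E-type cyclins, Ccne1 was at 13.6 and 5.34 CPM in wild type, 18.7 and 20.5 CPM in heterozygous, and 27.6, 4.43, 12.0 and 82.7 CPM in null embryos, in the order F1, F2, M1 and M2. Null embryos included both the lowest and the highest value. The log2 fold change of 1.21 (SE 0.93) turned to -0.70 without null F1 and M2, the embryos that lacked the most genes. Ccne2 was between 10.1 and 17.1 CPM in the Nanog-bearing and at 10.3, 30.6, 8.16 and 24.4 CPM in null F1, F2, M1 and M2, with a log2 fold change of 0.71 (SE 0.71).

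Ccna2 and Ccnb1 were the steadiest members in the embryos. Ccna2 was between 74.0 and 109 CPM in the Nanog-bearing and between 86.4 and 106 CPM in the null embryos (log2 fold change 0.28, SE 0.27). Ccnb1 was at 555 and 588 CPM in wild type, 586 and 548 CPM in heterozygous, and 858, 972, 516 and 566 CPM in null F1, F2, M1 and M2. Both null females thus lay above all other embryos and both null males within or below the range of the Nanog-bearing ones. The log2 fold change of Ccnb1 was 0.43 (SE 0.23, adjusted p = 0.931). Cdkn1b was at 12.9 and 24.1 CPM in wild type, 5.84 and 5.89 CPM in heterozygous, and 6.28, 8.999, 6.55 and 16.5 CPM in null embryos (log2 fold change 0.01, SE 0.81). Heterozygous against wild type gave -1.55 for Cdkn1b (SE 1.19, adjusted p = 1).

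**Figure D4:**
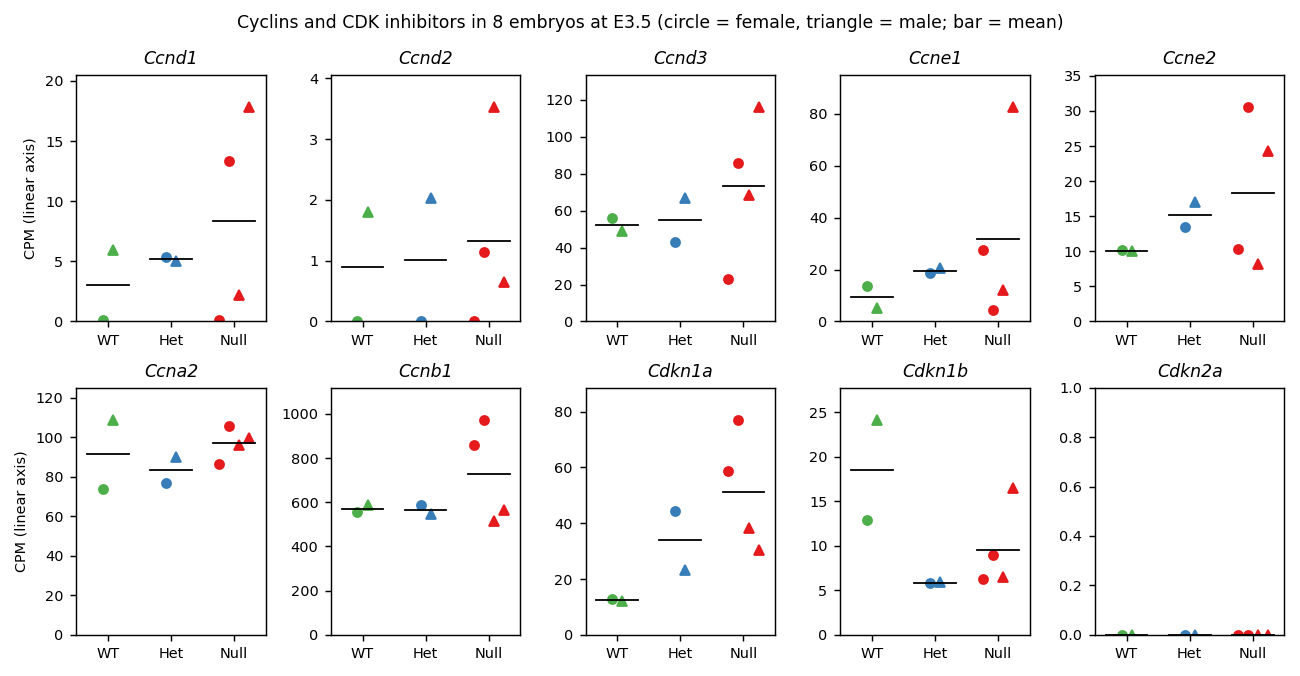
Levels of the 10 genes in the 8 embryos, in CPM on linear axes that start at 0 and differ between panels; each point is 1 embryo (circles female, triangles male) and bars are means. Cdkn1a lies between 30.3 and 77.0 CPM in null embryos and at 12.1 and 12.8 CPM in wild type, with the heterozygous female inside the range of the null embryos, Ccnb1 is highest in the null females, and Cdkn2a has 0 counts in every embryo.

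With 0 counts, Cdkn2a could have been at up to 0.0931 CPM in the deepest embryo and 0.203 CPM in the shallowest, taking 3 counts as the limit that a count of 0 allows, for counting error only. In bulk libraries fewer cells with a transcript and less of it per cell cannot be told apart.

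The partners and regulators of the members were taken by lists written from general knowledge, and the count called in each is to be read beside the shares of all genes called, 41.3% in ES against TS, 45.1% in ES against XEN and 36.7% in TS against XEN lines. The lists of other cyclins, of turnover and of phosphatases and mitotic kinases lay below these shares in all 3 comparisons, and the p53 list was near it in both comparisons of ES lines. Of the 5 CDK genes, 3 were higher and 1 lower in ES than in TS lines: Cdk6 (log2 fold change 2.22, SE 0.56), Cdk2 (0.96, SE 0.19), Cdk4 (0.67, SE 0.21) and Cdk1 (-0.63, SE 0.16). In ES against XEN lines 1 was higher, Cdk6 (5.19, SE 0.75), and 1 lower, Cdk1 (-0.94, SE 0.17). In TS against XEN lines Cdk6 was higher (2.97, SE 0.67) and Cdk2, the partner of cyclin E, lower (-1.16, SE 0.19). Cdk6 was at 10.5 and 14.6 CPM in the ES lines, 2.11, 3.64 and 2.00 CPM in the TS lines and 0.106 and 0.435 CPM in the XEN lines, which is the lineage order of Ccnd1. Of the 5 other cyclins 4 were tested, and 1 was higher and none lower in each comparison of lines. It was Ccnh, the cyclin of the CDK-activating kinase, in ES against TS lines (0.53, SE 0.17). In the other comparisons it was Ccna1, a cyclin A known from the germline, which was at 0.976 and 1.53 CPM in the ES lines, 0.612, 0.489 and 0.0908 CPM in the TS lines and at 0 counts in both XEN lines.

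Of the 5 other CDK inhibitors, 3 were lower and none higher in ES than in TS lines. Cdkn1c, which encodes the CIP/KIP protein p57, was at 185, 214 and 1178 CPM in the TS lines, 11.0 and 9.36 CPM in the ES lines and 1.06 and 0.932 CPM in the XEN lines (ES against TS log2 fold change -5.81, SE 1.04, adjusted p = 0.00481; TS against XEN 8.82, SE 1.21, adjusted p = 0.00165). TS line M3 thus held more than either other TS line. Cdkn2b, which encodes the INK4 protein p15 and neighbours Cdkn2a, gave -1.87 in ES against TS (SE 0.40) and -1.62 in ES against XEN (SE 0.42). Cdkn2d, another INK4 gene, gave -0.84 (SE 0.20), -1.52 (SE 0.22) and, in TS against XEN, -0.67 (SE 0.19). In ES against XEN lines 2 of the 5 were lower and 1, Cdkn1c (3.01, SE 1.00), higher.

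Of the 13 retinoblastoma and E2F genes, 7 were higher and 3 lower in ES than in TS lines, 4 higher and 3 lower in ES than in XEN lines, and 2 higher and 2 lower in TS than in XEN lines. Rb1, the retinoblastoma gene, was lower in ES than in TS (-1.80, SE 0.40) and XEN lines (-2.22, SE 0.43). E2f1 (0.93, SE 0.17) and E2f2 (1.49, SE 0.31), activators among the E2F factors, were higher in ES than in TS lines, and E2f2 (1.92, SE 0.36) and Tfdp2 (1.57, SE 0.33) were higher in ES than in XEN lines. E2f6, a repressor, was lower in TS than in XEN lines (-1.31, SE 0.16).

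Of the 6 cell cycle transcription factors, 1 was higher and 1 lower in ES than in TS lines, 1 higher and 2 lower in ES than in XEN, and 1 higher and 2 lower in TS than in XEN. Myc was lower in ES than in TS (-2.60, SE 0.29) and XEN lines (-3.07, SE 0.30), and Mybl2 higher than in both (1.36, SE 0.18; 1.51, SE 0.20). Foxm1, an activator of mitotic genes, was lower in ES than in XEN lines (-0.94, SE 0.23) and in TS than in XEN lines (-0.83, SE 0.20). In TS against XEN lines Mycn was lower (-1.45, SE 0.41) and Lin9 higher (0.73, SE 0.20). Of the 12 genes of cyclin and inhibitor turnover, 1 was higher and 1 lower in ES than in TS lines, 1 higher and 2 lower in ES than in XEN, and none higher and 1 lower in TS than in XEN. Fbxo5, an inhibitor of the anaphase-promoting complex, was higher in ES than in TS lines (1.02, SE 0.17), and Cks1b, a cofactor in the turnover of p27, lower (-0.80, SE 0.20). Of 10 CDK phosphatases and mitotic kinases, 1 was higher and 2 lower in ES than in TS lines, namely Pkmyt1 (0.74, SE 0.19) and, lower, Aurkb (-1.10, SE 0.25) and Plk1 (-0.73, SE 0.20). In ES against XEN lines 1 was higher, Bub1b (0.83, SE 0.26), and in TS against XEN lines 2 were lower, Cdc25b (-0.98, SE 0.25) and Pkmyt1 (-0.64, SE 0.19).

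The p53 list is set beside Cdkn1a, a p53 target. Of 13 genes tested, none was higher and 5 lower in ES than in TS lines, among them Perp (-5.16, SE 0.31), Btg2 (-2.47, SE 0.21), Phlda3 (-1.50, SE 0.20) and Mdm2 (-1.43, SE 0.20), while Cdkn1a itself was 0.80 higher in ES without passing. In TS against XEN lines 6 were higher and 1 lower, led by Perp (5.84, SE 0.33) and Trp53 (1.48, SE 0.18). In ES against XEN lines 3 were higher, led by Trp53 (1.96, SE 0.19), and 3 lower, led by Btg2 (-1.78, SE 0.22).

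In null against Nanog-bearing embryos none of these lists had a called gene, as only 2 genes were called in all. The smallest p-values in the turnover list were those of Cks2 (log2 fold change 0.92, SE 0.27) and Cks1b (0.79, SE 0.26), each with adjusted p = 0.931. Cks2 was at 207 to 358 CPM in Nanog-bearing and 380 to 613 CPM in null embryos, and Cks1b at 117 to 157 and 187 to 286 CPM. How many of all 12965 genes separate the groups in this way was not counted, and 644 had an unadjusted p under 0.05. In the p53 list the smallest was that of Perp (1.51, SE 0.61, adjusted p = 0.931). Perp was at 29.4 to 63.4 CPM in Nanog-bearing embryos and at 71.0, 225, 28.4 and 139 CPM in null F1, F2, M1 and M2. Over all genes the median was -0.05. It was 0.42 for the other CDK inhibitors, 0.10 for the CDKs, 0.05 for the p53 list, 0.02 for the turnover list and -0.07 for the phosphatases and mitotic kinases. It was lower for the retinoblastoma and E2F genes (-0.24, with 4 above and 8 below 0), for the other cyclins (-0.32, with 3 of 3 tested below 0) and for the cell cycle transcription factors (-0.69, with 6 of 6 below 0). The authors' deposited table of Nanog-regulated genes lists 78 genes, with none of the 10 members and none of the genes of these lists.

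The genes most like Ccnd1 across the 7 lines, by Pearson's r of log2 CPM among 8691 genes, were Arhgef18 (r = 0.994) and Bax (r = 0.992). Those most like Ccnd2 were Osbp (r = 0.990) and Ssr1 (r = 0.985). Each r is a description over 7 points in which lines of 1 lineage lie together.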

How the data were processed

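The authors' deposited table holds raw counts per gene symbol for 22 libraries. Per the submitters' processing notes, TopHat 1.3.1, edgeR and the build mm9 were used; no counting program, annotation or strand setting is named there. Another table gives, per the file headers of that deposited table, a direction word and no number for each of the authors' Nanog-regulated genes (unit other). Samples were grouped by their labels. Per the labels, the replicates of a line are technical, so their counts were summed, and p-values for the lines measure the spread between lines.

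Embryos (genotype and sex as terms) and lines (lineage) were fitted separately with edgeR 4.0.16 in R 4.3.3: trimmed-mean (TMM) scaling, filterByExpr, robust quasi-likelihood tests and Benjamini-Hochberg adjustment over all genes tested, with a threshold of 0.05. The fits were also run on simulated data in which every gene had the same spread. That setting is simpler than these libraries, and no result here rests on it. Levels are CPM of library totals, whereas fitted changes use the scaled totals. Levels per length divide by merged coding-transcript exons of GENCODE vM21 (GRCm38), which are not those of the authors' annotation. Named were all members, up to 4 called genes per list and comparison by smallest p, or up to 2 where none was called, and the 2 genes most like a member that ranged over at least 3 log2 units across lines. Of the called genes that rule allows, some are given only in the counts. The members, lists and rule were chosen with earlier results of these data known. Alternatives were DESeq2 1.42.0, limma 3.58.1 voom with quality weights, other scaling, no filter, no sex term, left-out samples, and a replicate block over the 14 line libraries. Using the TS passages with the lower fibroblast sum, and leaving out null F2 and M2, were added after the data were seen.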

Additional observations from a re-analysis of the deposited data

Results flagged for a closer look

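In groups of 4 to 10 libraries, 48 sets of member levels were searched for a highest or lowest library that stood far from the nearest other, and chance alone flags about 1 in 20 such sets. Of these, 2 were found. Ccnd1 was at 0.127 CPM (3 counts) in the wild-type female, against 5.01 CPM in the next lowest and 5.96 CPM in the highest of the 4 Nanog-bearing embryos. Ccne1 was at 278 CPM in passage 1 of TS line F1, against 209.5 CPM in the next highest and 177 CPM in the lowest of the 6 TS libraries.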

How the results depend on the processing

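Over 14 alternatives for the lines, the calls of Ccnd1 and Ccnd2 against XEN lines, of Ccne1 in TS against both other lineages, of Ccnd3 in ES against XEN lines and of Cdkn1b in TS against XEN lines all held. Genes called in null against Nanog-bearing and null against wild-type embryos numbered 2 each, but 1 and 1 with library totals, 87 and 96 with DESeq2 (1 member, Cdkn1a, in the second), 0 and 0 with limma voom, 50 and 37 with no filter, 1 and 1 without null F1 and M2, 2 and 2 without null F2 and M2, and 1 to 2 and 1 to 3 with 1 embryo left out. Heterozygous against wild type gave 76 with DESeq2 and 4 with no filter. With 1 line left out, ES against TS gave 2429 to 6233 genes and 2 to 5 members, and ES against XEN 3997 to 7646 genes and 3 to 7 members; a group left with 1 line was assumed to vary like the others.

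These members reversed, none of them called; the cause was not tested. In null against Nanog-bearing embryos Cdkn1b was -0.133 with library totals, -0.276 with limma voom and -0.33 without null F1 and M2, and ran from -0.42 to 0.25 with 1 embryo left out; Ccnd1 ran from -0.90 to 3.36. Without null F1 and M2, Ccne1 was -0.70 there and -0.16 in null against wild type, where Ccna2 ran from -0.00040 to 0.47. Without null F2 and M2, null against Nanog-bearing and null against wild-type embryos gave -2.51 and -1.01 for Ccnd1, -0.33 and -0.33 for Ccnd3 and -0.37 and -0.0661 for Ccne2, and the former gave -0.63 for Cdkn1b. In heterozygous against wild type Ccnb1 was 0.00615 with relative-log (RLE) scaling, 0.00612 with DESeq2 and 0.00464 with no sex term, and Ccnd3 was -0.00170 with library totals and -0.00454 with no filter. With 1 embryo left out, the ranges there were -4.24 to 4.19 for Ccnd2, -0.41 to 0.52 for Ccnd3, -0.33 to 0.13 for Ccna2 and -0.30 to 0.32 for Ccnb1. In ES against TS lines limma voom gave 0.11 for Ccnd2, 0.0246 for Ccne2 and -0.00177 for Ccna2, and the TS passages of the lower fibroblast sum 1.16 for Ccnd2 and -0.00940 for Ccna2. With 1 line left out, Ccnd2 ran from -0.61 to 0.26, Ccne2 from -0.35 to 0.11, Ccna2 from -0.0765 to 0.18 and, in TS against XEN, Cdkn2a from -0.0568 to 0.18. With library totals Ccnb1 was 0.12 in ES against XEN and 0.17 in TS against XEN.

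Passage numbers did not pair the libraries: passage differences correlated above 0.1 in 2 of 21 pairs of lines (-0.33 to 0.13). The replicate block gave 0.51 for Ccnd2 in ES against TS, and 5, 7 and 6 members called in the 3 comparisons of lines. By plain counts the D-type shares moved to 63.7% Ccnd1, 1.62% Ccnd2 and 34.7% Ccnd3 in ES lines, 1.73% Ccnd2 in TS lines, 57.4% Ccnd2 and 42.3% Ccnd3 in XEN lines and 1.48% Ccnd2 in Nanog-bearing embryos. Some embryo libraries held 0 to 3 counts of Ccnd1, Ccnd2 or Cdkn2a, and the part of depth in this was not tested. The wild-type female, at 23633097 total counts, held 3 counts of Ccnd1 and 0 of Ccnd2. The shallowest embryo, the heterozygous male at 14768624, held 74 and 30.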

Other observations

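Several cell cycle genes of the fixed lists were at or under 3 counts in most embryos, and the following were named after their values were seen. Cdkn2b, the INK4 neighbour of Cdkn2a, had 0 CPM in all 8 embryos and 2.64 to 14.0 CPM in the lines. Rb1 was at or under 3 counts in 7 of 8 embryos, with 4.90 CPM in the heterozygous female, and was at 7.81 to 44.2 CPM in the lines. Its relatives were detected in all 8 embryos, Rbl1 (p107) at 1.10 to 12.4 CPM and Rbl2 (p130) at 6.73 to 12.9 CPM. Cdkn1c was at or under 3 counts in 6 of 8 embryos and reached 1.69 CPM. Cdkn2c, which encodes the INK4 protein p18, was at 8.10 to 22.5 CPM in the embryos and at 0.533 to 1.77 CPM in the lines. Kits differed between embryos and lines, and these values are not a test between them.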
